A study of Mus musculus with 6 samples.

Results

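The beta-galactosidase-like family of the mouse was followed in the retinal pigment epithelium (RPE) after light damage, through its 4 genes Glb1, Glb1l, Glb1l2 and Glb1l3, out of 18193 genes measured. The genes were taken by symbol, and all 4 were found, on 6 probe sets. A gene with 2 probe sets was read from the brighter one, judged by its mean over the 6 arrays, and the other served as a check. The light-damaged group was RPE of BALB/c mice, an albino strain, kept in the dark for 1 week, then exposed to white fluorescent light of 6000 lux for 1.5 h and sampled 24 h afterwards (3 arrays). The dark-adapted group was RPE of BALB/c mice after the same week in the dark without the exposure (3 arrays). The labels give neither age nor sex, and they do not say whether a sample was 1 animal or a pool, so errors and p-values describe how these samples vary and may reflect technical variation alone. The family was chosen by the light-minus-dark difference of Glb1l3, which was the lowest of all genes in these same arrays. The differences of the 4 members between the groups are therefore given as a description, without a test.

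Beta-galactosidase is a lysosomal enzyme that removes terminal galactose from the ganglioside GM1, from keratan sulfate and from glycoproteins. It is encoded by Glb1 and held in the lysosome in a complex with the protective protein cathepsin A, and loss of the human enzyme causes GM1 gangliosidosis and Morquio B disease. Glb1l, Glb1l2 and Glb1l3 encode proteins related to it in sequence, of the same family of glycoside hydrolases, whose substrates are less well known. The RPE digests the tips of photoreceptor outer segments in its lysosomes every day.

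The start regions of Glb1l3, the member with the widest difference, and of Glb1, the classical lysosomal enzyme, are shown because they contrast in composition. Both are RefSeq sequences of build GRCm38.p6, from 250 bases before to 50 bases after the annotated start, printed 5′ to 3′ on the strand of the gene. The Glb1l3 window is chr9:26860774-26861073 on the minus strand and the Glb1 window is chr9:114400828-114401127 on the plus strand. Capitals mark CACGTG, the E-box core of the element bound by TFEB and its relatives MITF, TFE3 and TFEC, which drive lysosomal genes.
Glb1l3: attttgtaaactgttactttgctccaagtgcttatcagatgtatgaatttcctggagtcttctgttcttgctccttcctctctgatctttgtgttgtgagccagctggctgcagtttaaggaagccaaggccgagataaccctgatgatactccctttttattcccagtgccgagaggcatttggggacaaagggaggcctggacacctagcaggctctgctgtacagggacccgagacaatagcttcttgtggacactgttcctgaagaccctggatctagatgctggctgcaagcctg
Glb1: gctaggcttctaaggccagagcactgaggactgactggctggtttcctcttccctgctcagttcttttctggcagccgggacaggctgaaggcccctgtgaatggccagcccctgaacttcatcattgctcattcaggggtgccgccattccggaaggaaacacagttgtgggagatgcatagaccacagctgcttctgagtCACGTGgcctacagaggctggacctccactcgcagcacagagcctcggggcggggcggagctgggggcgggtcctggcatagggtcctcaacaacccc
The Glb1l3 window holds 3 CpG dinucleotides and is 49.3% G or C. The Glb1 window holds 9 CpG and is 60.7% G or C, and that of Glb1l, on chromosome 1, holds 26 CpG and is 65.3% G or C. The median over 32851 promoter windows of this length was 7 CpG and 52.7% G or C. CACGTG occurred once, in the Glb1 window, with its first base at position 203 of 300, and it is present in 7.15% of all windows. CATGTG, a related box bound by MITF, and TAATCC, the core bound by OTX2 and CRX, were searched on both strands, and neither was found in the windows of Glb1, Glb1l and Glb1l3. CATGTG is present in 14.15% and TAATCC in 7.06% of all windows. These matches describe letters only, and the window of Glb1l2 was not used here.

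The 6 arrays were not alike apart from the light. In a principal component analysis over genes, the leading component held 74.4% of the variance and set the replicate 1 arrays of both groups, at -68.73 in light-damaged and -38.60 in dark-adapted RPE, apart from the others, which lay between 18.76 and 34.02. The difference between the 3′ and 5′ control probe sets of Gapdh, a measure of RNA integrity and labelling, was 2.48 and 2.45 log2 units in light-damaged and dark-adapted replicate 1, and the other 4 lay between 1.54 and 1.80. Same-numbered arrays shared their deviations from the group means, as replicates 2 and 3 also did crosswise, and same-numbered arrays were treated as pairs. All 10 RPE markers were measured, with mean log2 values between 7.94 (Best1) and 14.69 (Ttr) in light-damaged and between 8.14 and 14.72 in dark-adapted RPE, on arrays with medians of 7.43 to 7.48. The isomerase gene Rpe65, for example, averaged 13.77 ± 0.59 in light-damaged and 14.38 ± 0.23 in dark-adapted RPE (log2 value, SD, n = 3 each). The 7 rod markers averaged between 6.92 (Prph2) and 14.36 (Sag) in light-damaged and between 7.23 and 14.53 in dark-adapted RPE. The rod transducin gene Gnat1 averaged 14.28 ± 0.25 in light-damaged and 14.53 ± 0.19 in dark-adapted samples (SD, n = 3 each), so the samples carried photoreceptor RNA. In such bulk samples fewer cells of a type and less RNA per cell cannot be told apart.

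Glb1l3 had log2 values of 7.38, 8.28 and 8.85 in light-damaged replicates 1, 2 and 3, against 8.80, 10.94 and 10.83 in dark-adapted replicates 1, 2 and 3. Every light-damaged array lay below its dark-adapted partner, but the groups touched, because the low dark-adapted replicate 1 lay just under light-damaged replicate 3. The mean was 8.17 ± 0.74 in light-damaged and 10.19 ± 1.21 in dark-adapted RPE (SD, n = 3 each). The difference was -2.02 ± 0.22 (light-damaged minus dark-adapted, standard error of the limma fit with the replicate number as a block), which is 0.247 of the dark-adapted level on the linear scale. Pair by pair it was -1.42, -2.66 and -1.98 for replicates 1, 2 and 3. With single arrays left out and no block, the difference was -1.62, -2.07 and -2.36 without light-damaged replicates 1, 2 and 3, and -2.71, -1.64 and -1.70 without dark-adapted replicates 1, 2 and 3. It was below 0 each time, and leaving out dark-adapted replicate 1 moved it the most. Glb1l3 had 1 probe set, so no other probe set could check it.

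Next to Glb1l3 at the low end of all differences were Sostdc1, an antagonist of BMP and Wnt, at -1.97 ± 0.14 and the clone-named 4930512H18Rik at -1.93 ± 0.16. These are the values that chose the family. The level of Glb1l3 also varied with the replicate number. The replicate 1 array minus the mean of the other 2 came to -1.18 log2 units in light-damaged RPE and -2.09 in dark-adapted RPE. The higher Gapdh 3′ to 5′ difference moved with this, and its part in the values was not tested.

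Glb1l2, a measured neighbour of Glb1l3 on chromosome 9, followed the same course at a smaller size. Its values were 8.59, 9.07 and 9.50 in light-damaged replicates 1, 2 and 3, against 9.43, 10.49 and 10.51 in dark-adapted replicates 1, 2 and 3. Again each light-damaged array lay below its partner, and again dark-adapted replicate 1 was just under light-damaged replicate 3. The mean was 9.05 ± 0.45 in light-damaged and 10.14 ± 0.62 in dark-adapted RPE (SD, n = 3 each), a difference of -1.09 ± 0.13, or 0.469 of the dark-adapted level. This was the 22nd lowest difference among the 18193 genes.

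Unlike Glb1l3, Glb1l2 could be checked by a second probe set. That one read 8.19, 9.02 and 9.45 in light-damaged replicates 1, 2 and 3, against 9.00, 10.50 and 10.31 in dark-adapted replicates 1, 2 and 3. Its difference was -1.05 ± 0.14, so both probe sets placed light-damaged RPE at 0.469 and 0.483 of the dark-adapted level. In pairs 1, 2 and 3 the Glb1l2 difference was 59.4%, 53.2% and 51.4% of that of Glb1l3 on the log2 scale, and for both genes pair 2 was the widest and pair 1 the narrowest. Over the 6 arrays the values of Glb1l2 and Glb1l3 correlated at r = 0.998, a description of 6 points that share arrays, light and the replicate 1 offset. Without both replicate 1 arrays r was 0.997 over the other 4.

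Glb1, the lysosomal enzyme itself, read 8.17, 8.96 and 8.89 in light-damaged replicates 1, 2 and 3, against 8.71, 8.60 and 9.06 in dark-adapted replicates 1, 2 and 3. The groups overlapped widely, and the pairs went both ways, by -0.53, 0.36 and -0.17. The mean was 8.67 ± 0.43 in light-damaged and 8.79 ± 0.24 in dark-adapted RPE (SD, n = 3 each), with a difference of -0.12 ± 0.17. The sign turned without the replicate 1 arrays, where the difference was 0.09 ± 0.14. The lone probe set of Glb1 thus showed a difference smaller than its standard error.

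Glb1l read 6.30, 7.11 and 6.95 in light-damaged replicates 1, 2 and 3, against 7.03, 6.93 and 7.54 in dark-adapted replicates 1, 2 and 3. Here too the groups overlapped and pair 2 went the other way, with pair differences of -0.73, 0.18 and -0.59. The difference was -0.38 ± 0.18, from a mean of 6.79 ± 0.43 in light-damaged and 7.17 ± 0.32 in dark-adapted RPE (SD, n = 3 each). The second probe set of Glb1l had a difference of 0.08 ± 0.08 and lay above 0 in 3 of 3 pairs, so the 2 probe sets of this gene disagreed in sign. The replicate patterns of Glb1 and Glb1l were alike (r = 0.928 over 6 arrays), while Glb1 and Glb1l3 shared less (r = 0.467).

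**Figure D1:**
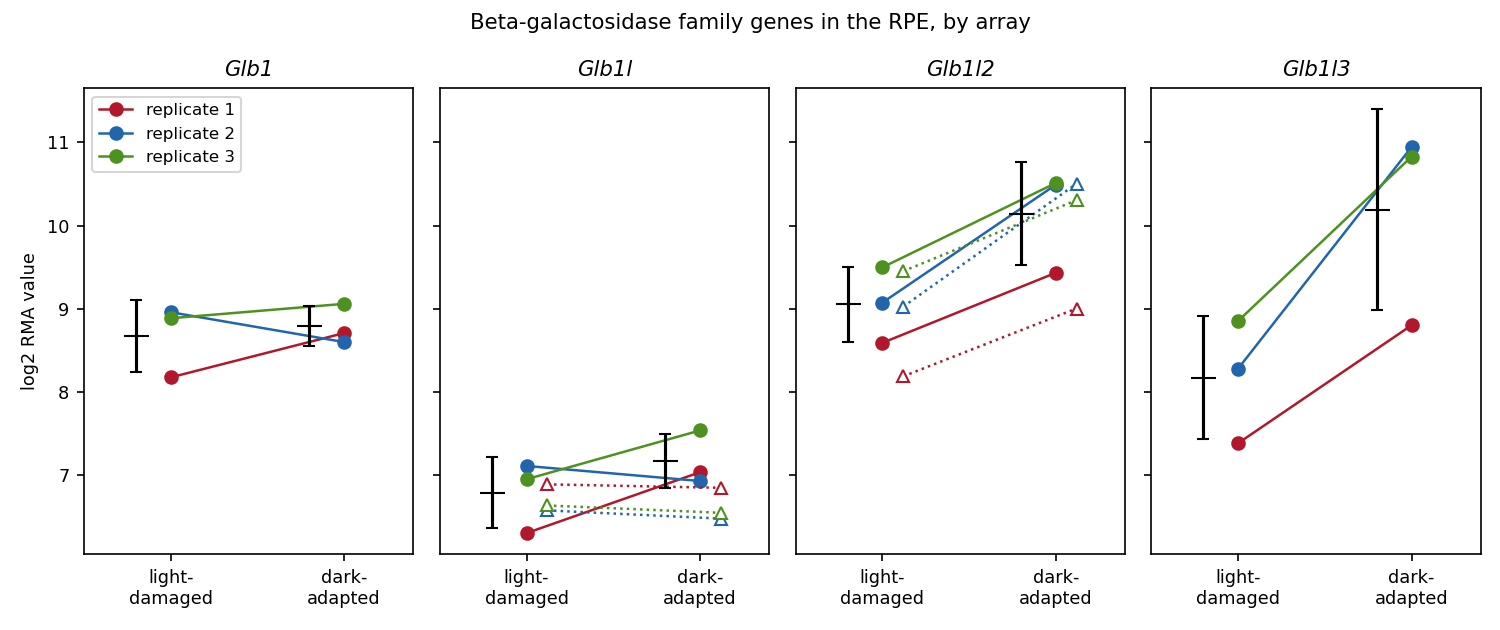
Log2 RMA value (y axis) of each family gene in light-damaged and dark-adapted RPE. Filled circles joined by solid lines are the arrays of one replicate number on the probe set used, open triangles with dotted lines are the second probe sets of Glb1l and Glb1l2, and black bars are the mean ± SD of 3 arrays. All 3 solid lines of Glb1l3 and Glb1l2 run up to the dark-adapted side, whereas the solid replicate 2 line of Glb1 and that of Glb1l run down.

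In the limma fit across all genes with the replicate block, 2 of the 4 members, Glb1l2 and Glb1l3, were among those lower in light-damaged RPE at an adjusted p under 0.05. That share was 1.92% of all genes for lower values and 4.99% for either direction. Both also belonged to the 20.7% of genes with a pair difference below 0 in 3 of 3 pairs. None of the 4 members was among the 9 genes called without the block (0.0495% of all genes), and none belonged to the 3.72% of genes for which every light-damaged array lay below every dark-adapted array. Since the family was taken from this contrast for its Glb1l3 difference, the counts describe where its members stand and are not a test of them. The median difference of the 4 members was -0.74, beside -0.0001 over all genes.

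Among the measured genes, Glb1l2 and Glb1l3 lie next to each other on chromosome 9 in the RefSeq gene table of GRCm38.p6. The measured genes around them were read for comparison. On the Glb1l2 side, B3gat1, a glucuronyltransferase that makes the HNK-1 carbohydrate, differed by -0.03 ± 0.12 and Eepd1 by 0.02 ± 0.10. On the Glb1l3 side, the acyl-CoA dehydrogenase gene Acad8 averaged 8.40 ± 0.24 in light-damaged and 8.84 ± 0.36 in dark-adapted RPE (SD, n = 3 each). Its difference of -0.44 ± 0.09 was below 0 in 3 of 3 pairs but did not pass (limma adjusted p = 0.0509). The next gene, Thyn1, differed by -0.01 ± 0.11.

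The neighbours of the other members were read in the same way. Beside Glb1, also on chromosome 9, Crtap, which helps hydroxylate collagen prolines, differed by 0.19 ± 0.15, Tmppe by -0.01 ± 0.10, the chemokine receptor gene Ccr4 by 0.03 ± 0.10 and 4930520O04Rik by -0.004 ± 0.10. Beside Glb1l on chromosome 1, the autophagy gene Atg9a differed by 0.09 ± 0.09, Ankzf1 by 0.02 ± 0.09, the kinase gene Stk16 by -0.02 ± 0.09 and the tubulin gene Tuba4a by -0.27 ± 0.10. Of these 12 neighbours none passed the limma test at an adjusted p under 0.05, with or without the block, where 4.99% of all genes passed with it. At an unadjusted p under 0.05 there were 2 with the block, Acad8 and Tuba4a, and none without it.

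**Figure D2:**
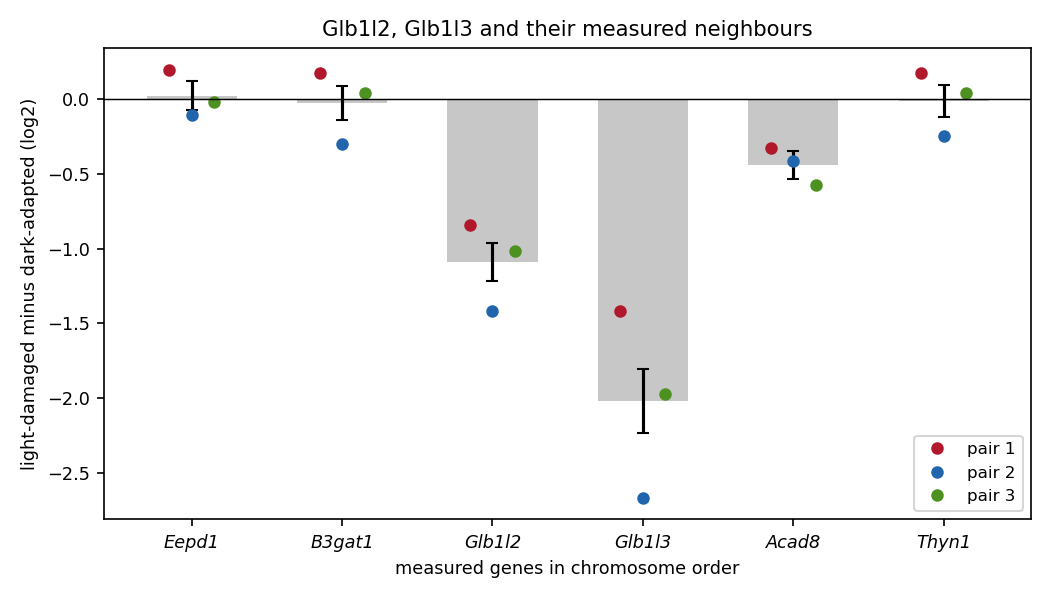
Light-damaged minus dark-adapted difference (log2, y axis) of Glb1l2, Glb1l3 and the 2 nearest measured genes on either side, in chromosome order. Bars are the mean difference with its standard error from limma with the replicate block, and points are the 3 pairs. Glb1l2 at -1.09 and Glb1l3 at -2.02 stand between genes at -0.03 and -0.44.

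The genes whose values over the 6 arrays were most like those of Glb1l3 were ranked by Pearson's r among 3860 genes with a range of at least 1 log2 unit and without clone names. Because Glb1l3 was chosen for its contrast, and because the arrays share the replicate 1 offset, these values are a description. The leading 8 were the kinetochore gene Spc25 (r = 0.999), the gene of the secreted matricellular protein Ccn4 (0.998), Glb1l2 (0.998), the cone arrestin gene Arr3 (0.993), the photoreceptor phosphatase gene Ppef2 (0.989), Tnfaip3, which encodes a ubiquitin-editing inhibitor of NF-κB signalling (0.989), Dleu7 (0.985) and the BBSome subunit gene Bbs9 (0.984). Without the replicate 1 arrays each of the 8 kept an r of 0.980 or more over 4 arrays.

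These genes shared the shape of the Glb1l3 profile but not its size. Spc25 averaged 9.32 ± 0.68 in light-damaged and 10.92 ± 0.97 in dark-adapted RPE (SD, n = 3 each), with pair differences of -1.21, -2.14 and -1.47. Ccn4 averaged 9.03 ± 0.48 in light-damaged and 10.19 ± 0.66 in dark-adapted RPE, a difference of -1.16 ± 0.14, and its second probe set gave -1.25 ± 0.12. Arr3 averaged 8.94 ± 0.31 in light-damaged and 9.86 ± 0.44 in dark-adapted RPE, a difference of -0.92 ± 0.10, and its other probe sets gave -0.28 and -0.73.

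Second probe sets did not always bear out the likeness. That of Spc25 differed by -0.13 ± 0.15 and that of Tnfaip3 by -0.29 ± 0.10, against -1.61 ± 0.17 and -0.78 ± 0.13 for the probe sets ranked. Ppef2, Dleu7 and Bbs9 differed by -0.93 ± 0.14, -1.48 ± 0.28 and -0.64 ± 0.12. The genes most like Glb1l2 were Spc25, Glb1l3 and Ccn4, with r between 0.997 and 0.998. Those most like Glb1 were Abtb2, the peroxisomal transporter gene Abcd3 and the splicing regulator gene Rbm20 (0.956 to 0.968). Those most like Glb1l were the lysyl oxidase-like gene Loxl1, the growth factor gene Bmp2 and the small GTPase gene Rab27a (0.986 to 0.987).

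**Figure D3:**
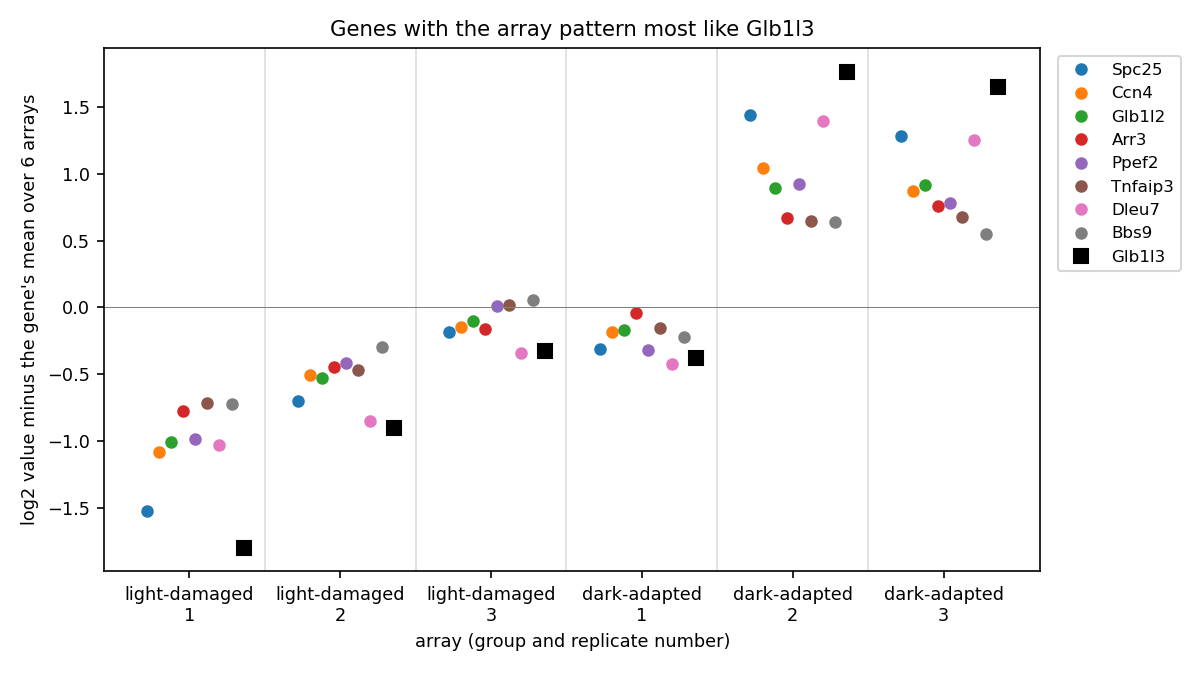
Log2 value minus the mean of the gene over the 6 arrays (y axis) for Glb1l3 (black squares) and the 8 genes with the highest Pearson's r to it (coloured circles), by array. In every gene shown the highest values are dark-adapted replicates 2 and 3, and light-damaged replicate 1 is the lowest.

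Markers of cell types moved between the groups alongside Glb1l2 and Glb1l3, and their part in the differences was not tested. All 10 RPE markers were below 0 in their difference on the probe sets used (median -0.57), and 3 fell with an adjusted p below 0.05 by limma with the block. These were Rrh, an opsin of the RPE, by 0.82, the lactate transporter gene Slc16a8 by 0.74 and the retinol esterifying gene Lrat by 0.69. The dimmer probe set of Slc16a8 went the other way, at 0.19 ± 0.10, and that of Lrat gave -0.81 ± 0.23. The summed linear level of the 10 markers ranged from 77603 to 108118 in light-damaged and from 112850 to 141028 in dark-adapted arrays. The mean difference of these markers was -0.70, -0.31 and -0.47 in pairs 1, 2 and 3. Glb1l3 lay below all 10 of them in each pair, and its distance from their mean was -0.72, -2.35 and -1.50. Since Glb1l3 was chosen for the lowest difference of all genes, its place below the markers was largely set by that choice. Pair 1 was the widest pair for the RPE markers and the narrowest for Glb1l3. Glb1l2 lay below all 10 markers in pairs 2 and 3, and below 5 of them in pair 1.

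Cone and rod markers were lower too. The differences of 4 of 5 cone markers were below 0 (median -0.89), and the short-wavelength opsin gene Opn1sw, Arr3 and the cone transducin gene Gnat2 fell by 1.72, 0.92 and 0.89 on the log2 scale. The dimmer probe set of Opn1sw gave -0.59 ± 0.15. The summed linear cone level was 4032 to 5333 in light-damaged and 6654 to 9053 in dark-adapted arrays. Those of all 7 rod markers were below 0 (median -0.48), and Nrl and Pde6b fell, by 0.67 and 0.55. The summed linear rod level overlapped between groups, at 54219 to 81133 in light-damaged and 73348 to 96989 in dark-adapted arrays. Of 6 macrophage markers 5 rose, led by Cd68 at 4.31-fold and Ptprc at 2.42-fold. The remaining one, Csf1r, differed by -0.15 ± 0.09 and did not pass. The summed level of all 6, of which Csf1r was the brightest, was 16156 to 22245 in light-damaged and 13923 to 18578 in dark-adapted arrays.

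Markers of the remaining cell types were less uniform. Of 5 markers of Müller glia, Vim and Gfap rose 2.43-fold and 1.67-fold, while Slc1a3, Glul and Aqp4 differed by 0.25, -0.22 and -0.29 on the log2 scale and did not pass (median 0.25). Of 5 fibroblast markers, Col3a1 and Pdgfra rose 1.76-fold and 1.66-fold, and the other 3 lay between 0.08 and 0.44 without passing. On the log2 scale the dimmer probe set of Col3a1 gave 0.54, and those of Pdgfra gave 0.01 and 0.35. Of 5 endothelial markers Vwf rose 1.60-fold, whereas Cdh5, Kdr, Pecam1 and Tek differed by 0.27, -0.0008, -0.02 and -0.06 and did not pass (median -0.0008). Of 4 markers of inner retinal neurons none passed, with a median of -0.47 and 2 at an unadjusted p under 0.05. None of the 47 cell type markers passed in limma without the block, where 15 had an unadjusted p under 0.05. The values carry no detection calls, so no marker can be called absent.

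The genes that work around beta-galactosidase were read next. Over 8 lists of lysosomal and galactose-handling genes, 56 genes other than the members were measured, and limma with the block called 3 that rose and 2 that fell (adjusted p under 0.05). That is 8.93% of them, beside 4.99% of all genes, and their median difference was 0.02. The count rests on the pairs: without pair 3 none of the 56 passed, without pair 2 there were 3, and none passed without the block, where 5 had an unadjusted p under 0.05.

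The partners of Glb1 in the lysosome stood slightly above 0 on the probe sets used. Ctsa, the protective protein cathepsin A, averaged 11.34 ± 0.15 in light-damaged and 11.03 ± 0.23 in dark-adapted RPE (SD, n = 3 each), a difference of 0.31 ± 0.09 that did not pass (limma adjusted p = 0.123). The sialidase gene Neu1 differed by 0.15 ± 0.09 and the galactosamine-6-sulfatase gene Galns by 0.24 ± 0.11. Neither passed, and among these 3 the unadjusted p was under 0.05 for Ctsa alone. Dimmer probe sets went both ways, at -0.04 for Ctsa, 0.10 and -0.11 for Neu1 and 0.17 for Galns.

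Of 9 sphingolipid breakdown genes 1 fell. Smpd1, the lysosomal sphingomyelinase, averaged 11.69 ± 0.30 in light-damaged and 12.33 ± 0.12 in dark-adapted RPE (SD, n = 3 each), and it fell by 0.64 ± 0.12 (limma adjusted p = 0.0355), with -0.51 from its second probe set. Gla, the alpha-galactosidase that removes galactose in the other linkage, had a difference of 0.56 ± 0.14 (adjusted p = 0.0889), and its 2 dimmer probe sets gave -0.06 and 0.02. Psap, the saposin precursor, differed by -0.55 ± 0.25 and the galactosylceramidase gene Galc by 0.08 ± 0.09, and neither passed.

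Of 8 glycosaminoglycan breakdown genes, the beta-glucuronidase gene Gusb rose. It averaged 8.56 ± 0.68 in light-damaged and 7.77 ± 0.40 in dark-adapted RPE (SD, n = 3 each), and the rise was 1.72-fold (limma adjusted p = 0.024), with a log2 difference of 0.19 from its dimmer probe set. Hgsnat (0.41 ± 0.09, adjusted p = 0.0532), Sgsh (-0.41 ± 0.10, adjusted p = 0.083), both of heparan sulfate breakdown, and the iduronate sulfatase gene Ids (-0.38 ± 0.14, adjusted p = 0.219) did not pass. No gene passed among the 9 of glycoprotein and glycogen breakdown with limma, nor at an unadjusted p under 0.05. The differences of the leading 4 there, Manba, Fuca2, Ctbs and Man2b2, were 0.25, -0.22, -0.17 and -0.18. Dimmer probe sets went the other way, at 0.05 and 0.14 for Fuca2 and 0.35 and 0.08 for Ctbs.

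Galactose metabolism was split. Galm, the mutarotase that prepares galactose for phosphorylation, averaged 10.16 ± 0.25 in light-damaged and 10.72 ± 0.45 in dark-adapted RPE (SD, n = 3 each). It fell by 0.55 ± 0.11 (limma adjusted p = 0.039), with -0.54 and -0.33 from its other probe sets. The phosphoglucomutase gene Pgm2 rose 1.33-fold, at the edge of the threshold (adjusted p = 0.0499). The uridylyltransferase gene Galt and the UDP-glucose pyrophosphorylase gene Ugp2 differed by 0.06 ± 0.10 and -0.05 ± 0.10.

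Of 14 galactosyltransferases, which add the galactose that beta-galactosidase removes, B4galt5 rose 1.49-fold (0.57 ± 0.10, limma adjusted p = 0.0282). It was read by an s_at probe set, a type that can bind several transcripts, and its other, dimmer probe set gave -0.04. B4galt6, B4galt4 and B4galt1 differed by 0.21, 0.17 and -0.17 and did not pass. In the lactase and klotho family of glycosidases, Kl, Lct and Klb differed by -0.13, -0.10 and -0.005. None of the 3 passed with limma, nor at an unadjusted p under 0.05. The dimmer probe set of Kl went the other way, at 0.25 ± 0.10, and that of Klb gave -0.10.

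The transcription factors of the lysosomal E-box were read last. Mitf, also a regulator of RPE identity, had a difference of -0.46 ± 0.10 (limma adjusted p = 0.0555), below 0 in 3 of 3 pairs, and its second probe set gave -0.31. Tfe3, Tfec and Tfeb differed by 0.25 ± 0.09, 0.17 ± 0.10 and 0.17 ± 0.09. None of the 4 passed, and Mitf and Tfe3 had an unadjusted p under 0.05 with the block and none did without it.

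**Figure D4:**
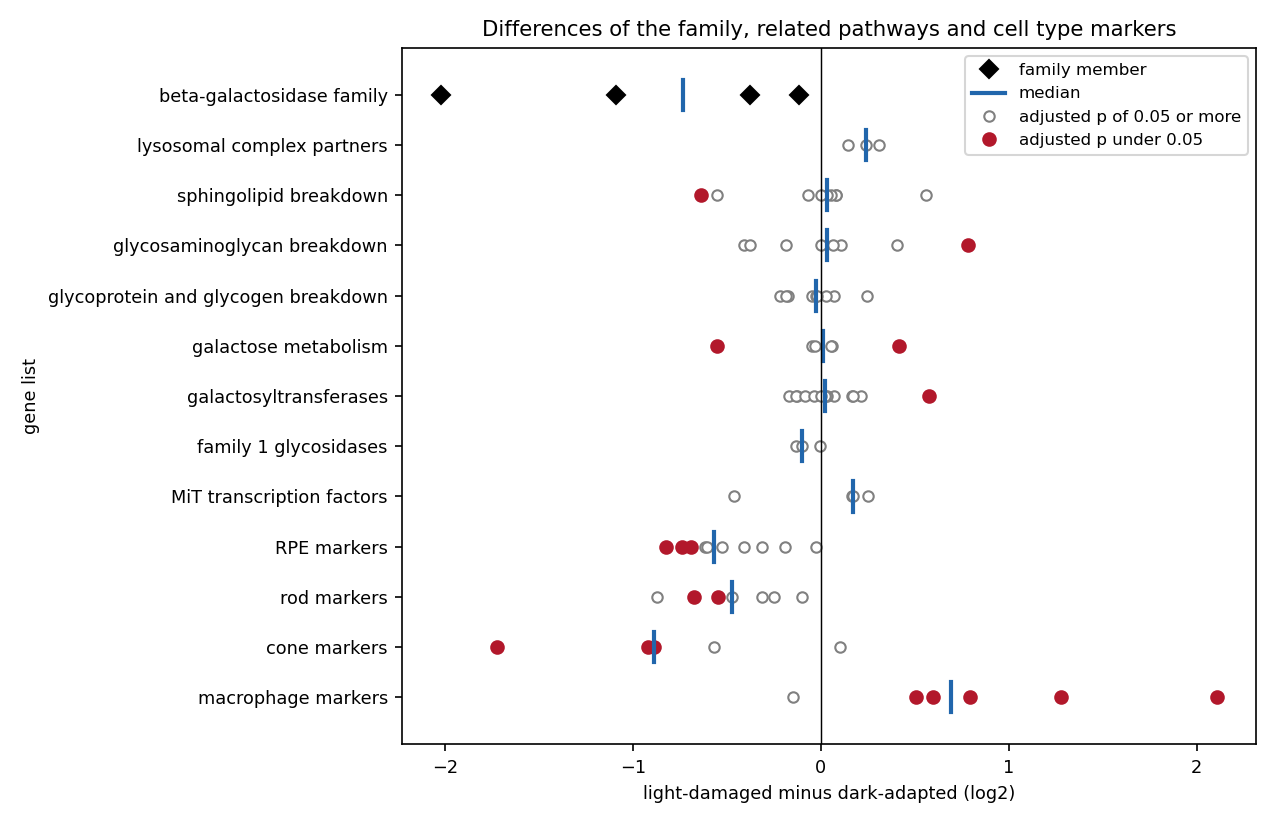
Light-damaged minus dark-adapted difference (log2, x axis) of the 4 family members (diamonds) and of each gene of the related pathway and cell type lists (circles), with the list median as a blue line. Red circles passed limma with the replicate block at an adjusted p under 0.05, and the family members carry no test. Glb1l3 at -2.02 lies to the left of every other gene drawn, since it was chosen for the lowest difference of all genes. The medians of the lysosomal and galactose lists lie between -0.10 and 0.24.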

How the data were processed

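The authors deposited log2 values of Affymetrix probe sets, made with RMA per the submitters' processing notes, whose version is not stated there. That the scale is log2 was read from the values. RMA compresses differences of dim and very bright probe sets. Of 45101 probe sets, 34945 had exactly 1 gene symbol in the platform annotation of 2016, 932 had several, 9160 had none used here and 64 were controls. Of the 34945, 34741 were found by Entrez number in the RefSeq table of GRCm38.p6 and 0 symbols changed. The probe set with the highest mean stood for each of 18193 genes.

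The comparison used limma 3.58.1 under R 4.3.3 (two-sided, Benjamini-Hochberg over all genes, adjusted p under 0.05), with the replicate number as a block and 2 residual degrees of freedom, as the rule for choosing the family sets it. The labels number the replicates without saying what a number marks. Over genes, the deviation of a light-damaged array from its group mean correlated with that of its same-numbered dark-adapted array at 0.888, 0.624 and 0.859, above the bound of 0.1. Replicates 2 and 3 also correlated crosswise (0.654 and 0.608), about as strongly as the replicate 2 arrays did with each other, so their pairing is less sure. With replicate 1 apart in both groups, the bound could not tell whether replicates 2 and 3 were rightly paired. Members and gene lists were chosen with earlier results of these data known. Genes were named by a rule: all members, up to 4 genes per pathway list by smallest p, the 2 nearest measured genes on each side of a member, and the genes with the most similar array pattern; marker genes were picked for naming with their values in view. The alternatives were the block, normalization, a pseudocount of 16, a filter on dim genes, limma settings, other probe sets and left-out pairs and arrays. Of 66 genes on the pathway lists, 56 were measured. Array number limits the precision.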

Additional observations from a re-analysis of the deposited data

How the results depend on the processing

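Without the replicate block the differences of the members stay the same by construction, while the standard error of Glb1l3 was 0.66 against 0.22, the number of genes called by limma was 9 against 908, and 0 genes of the pathway lists passed against 5. With pair 1, 2 or 3 left out, which leaves 1 residual degree of freedom, the genes called were 1245, 677 and 228 and the pathway genes called 5, 3 and 0. Without the block they were 12, 3 and 3 without light-damaged replicates 1, 2 and 3 and 4, 3 and 4 without dark-adapted replicates 1, 2 and 3, with 0 pathway genes each time. Over the 13 alternatives on the same probe set, Glb1l3 ranged from -2.71 to -1.62 and Glb1l2 from -1.45 to -0.86, with both ends from left-out replicate 1 arrays. Glb1l ranged from -0.66 to -0.14. Glb1 ranged from -0.35 to 0.13 and was below 0 in 10 of the 13. Quantile normalization, median centring, the pseudocount, the filter on dim genes and the trend and robust settings kept each count of calls within 1.5 times, and the first 3 of these moved no member by more than the SD of its pair differences.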
